A study of Salmo salar with 12 samples.

Results

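The mature miRNAs described here are those that had a count of 0 in each of 12 small RNA libraries of cultured Atlantic salmon (Salmo salar) cells. They were chosen by these counts among the rows that carry no locus number before the arm (as ssa-miR-122-5p does, and ssa-miR-122-2-3p does not) and that belong neither to let-7 nor to a set of other families, among them miR-10, miR-21, miR-143, miR-192 and miR-200, which were left out by their miRNA number. Of 361 mature miRNAs in the table, 164 met these name criteria, and 107 of the 164 had no count in any library. Those 107 silent miRNAs belong to 56 families, where a family is all rows with the same miRNA number. The other 57 of the 164 had a count in at least 1 library, and they serve below as the detected rows of the same set. The silent miRNAs were selected on their measured counts in all 12 libraries, so their zeros are described and not tested.

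Small RNA was sequenced from adherent cells of the distal intestine (AIC) and of the head kidney (AKC), with 6 numbered libraries for each. The fish were untreated post-smolts with a mean weight of 550 g, no strain or genotype was given, and all cells were kept for 2 days at 12 °C to adhere. The libraries were made from the whole adherent pool, of which macrophage-like cells were a subset, so neither group is a pure cell type. The 6 libraries of a group are called biological replicates in the study's methods. These report 6 fish, from which both organs were dissected, but do not say which AIC and AKC libraries came from the same fish. The main tests below treat the 12 libraries as independent, with a block by replicate number as an alternative.

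A mature miRNA is cut from one arm of a hairpin precursor, and the 5p and 3p names give the arm. In most precursors one arm, the main arm, is loaded into the Argonaute protein and accumulates, while the other, the passenger arm, is mostly degraded. Some families are made in nearly every cell, whereas others are known from mammals and zebrafish as restricted to one lineage, such as miR-122 in hepatocytes or miR-1 in striated muscle.

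The total count was between 2253241 and 11804738 in the AIC libraries (median 4842495) and between 5791813 and 19586478 in the AKC libraries (median 11374165). With 3 counts as the limit that a count of 0 allows, a silent miRNA could have made up to 0.254 to 1.33 CPM (counts per 1000000 counts of the library) in a single AIC library and up to 0.153 to 0.518 CPM in a single AKC library. Over the pooled counts of a group the limit was 0.0906 CPM in AIC and 0.0433 CPM in AKC. These limits cover counting error only, since the libraries passed through 25 PCR cycles and the study's methods describe no removal of PCR duplicates. The families miR-192, miR-194, miR-200 and miR-375 were taken as a list for intestinal epithelium. They took 19.9% to 29.1% of the counts in AIC and 0.00616% to 0.0322% in AKC, with 13 of their 17 rows counted in AIC and 6 in AKC. Most of the AIC share was ssa-miR-375-3p, a miRNA also known from endocrine cells, so the share does not measure epithelium as a whole. The AIC mean of ssa-miR-375-3p, in CPM scaled by TMM as in the tests below, was 333296, beside 3943 for ssa-miR-200a-3p and 3315 for ssa-miR-192a-5p. TMM rescales the library totals, so these means can be set beside each other but not beside the percentages above. The blood cell families miR-142, miR-144, miR-150, miR-223 and miR-451 took 0.147% to 1.57% in AIC and 1.06% to 2.87% in AKC. Of their 5 rows, 2 had a count in AIC and 1, ssa-miR-150-5p, in AKC. The AKC share was thus this 1 row alone, and the other rows of these families were at 0 in every AKC library. In bulk samples of this kind, fewer cells of a type and less RNA per cell cannot be told apart, and the part that other cell types play in the zeros was not tested.

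Zeros were common throughout the table. In all, 181 of the 361 rows, or 50.1%, had no count in any library. The share was 65.2% among the 164 rows considered here and 37.6% among the 197 other rows, where 50 of 72 locus-numbered rows and 24 of 125 rows of the families left out were at 0. By arm, 67 of 101 5p rows (66.3%) and 40 of 63 3p rows (63.5%) of the set were silent, against 107 of 230 5p rows (46.5%) and 74 of 131 3p rows (56.5%) over the whole table. The silent share was 56.25% for miRNA numbers below 100, 58.1% from 100 to below 300, 77.1% from 300 to below 700 and 86.7% from 700 to below 1000, the range that holds many families first named in fish, and 62.5% (15 of 24) from 1000 upward. The 164 rows together, detected ones included, held 0.350% of all counts.

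The 56 families were chosen by their silent rows out of 75 families in the set, and 19 of the 75 had no silent row. Of the 56 families, 37 were silent in every row of their number, locus-numbered rows included. These 37 held 73 of the 107 silent miRNAs. Some of the 37, such as miR-138 and miR-182, have only 1 row, so for those families full silence restates the selection. In the other 19 of the 56 families, 34 miRNAs were silent while at least 1 relative was counted. Locus-numbered copies of the 56 families were also mostly at 0, in 28 of 30 rows, beside 50 of 72 locus-numbered rows over the table. As the families were chosen for silent rows, this is no independent support. The exceptions were ssa-miR-29b-2-5p with 501 counts in AKC 1 and ssa-miR-133a-3-5p with 116 counts in AIC 4.

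When the rows were sorted by the tissue for which their family is known in mammals or zebrafish, 50 of 70 rows in 13 tissue lists (71.4%) were silent, beside 16 of 35 rows (45.7%) of families known as broadly expressed and 41 of 59 rows (69.5%) of the families in no list. Only 3 of the 70 rows of the tissue lists had a count in 6 or more libraries, beside 5 of the 35 broadly expressed rows. These are counts of rows, many of which share a precursor. They also depend on the list in which a family was placed, a choice made with earlier results of these data known. ssa-miR-128-3p, with the highest total of the set (171491 counts, in 12 of 12 libraries), was placed under broadly expressed. In the neural list it would have been a further counted row. The lists held 48 families, and 7 of these (miR-34, miR-124, miR-184, miR-208, miR-211, miR-217 and miR-383) have no row among those analysed here.

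**Figure D1:**
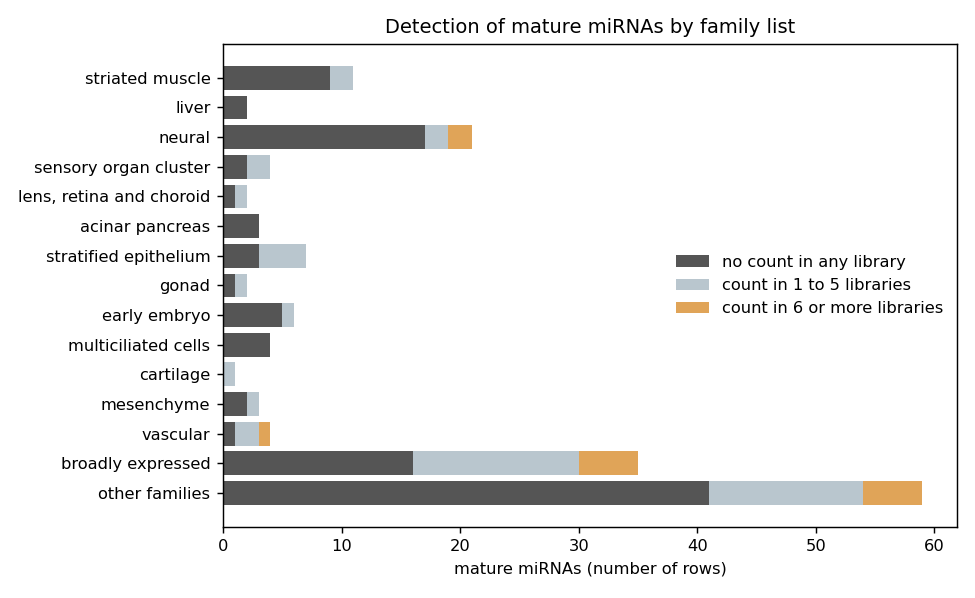
Horizontal bars give the number of mature miRNAs in each list of families, split into those with no count in any of the 12 libraries (dark), those with a count in 1 to 5 libraries (grey) and those with a count in 6 or more (orange). The liver, acinar pancreas and multiciliated lists are dark throughout, the striated muscle list has 9 of 11 rows dark, and the broadly expressed list has 16 of 35.

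Of the striated muscle list, 9 of 11 rows (81.8%) were silent, beside 65.2% of the whole set. Silent were both arms of ssa-miR-499a and ssa-miR-499b, whose mammalian counterpart lies within an intron of a slow myosin heavy chain gene, both arms of ssa-miR-133b, and the 5p arms of ssa-miR-1, ssa-miR-133a and ssa-miR-206. Of these 9, ssa-miR-133b-3p and the 5p arms of ssa-miR-499a and ssa-miR-499b are main arms in mammals. The main arm of miR-1, which promotes muscle differentiation, has no row among those analysed here, so ssa-miR-1-5p at 0 and 2 further 5p copies of miR-1 at 0 concern the passenger arm.
The other 2 muscle rows were counted. ssa-miR-133a-3p is the main arm of the copy whose 5p row without a locus number was silent. It had 0, 0, 197, 62, 0 and 0 counts in AIC 1 to 6 and 283, 61, 0, 0, 0 and 0 counts in AKC 1 to 6. ssa-miR-206-3p had 207 counts in AIC 3 and 0 in the other 11 libraries. Each was thus counted in a minority of libraries, and no AIC or AKC library other than AIC 3, AIC 4, AKC 1 and AKC 2 held either. The locus-numbered 5p row of miR-133a, ssa-miR-133a-3-5p, had 116 counts in AIC 4, so the 5p arm of miR-133a was not silent in every row.

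The neural list was the longest of the 13 tissue lists, with 17 of 21 rows (81.0%) silent, beside 65.2% of the whole set. miR-9 and miR-137, known from neural progenitors and neurons of vertebrates, had 0 counts in ssa-miR-9a-5p, both arms of ssa-miR-9b, both arms of ssa-miR-137 and 5 locus-numbered miR-9 rows. Also at 0 were both arms of ssa-miR-153a and ssa-miR-153b, ssa-miR-138-5p, the 5p arms of ssa-miR-219a, ssa-miR-219b and ssa-miR-219c, and both arms of ssa-miR-338a. miR-219 and miR-338 promote oligodendrocyte differentiation in mammals, while miR-153 and miR-138 are enriched in brain. Of these 15 rows, 10 are the main arm in mammals. ssa-miR-132-5p and ssa-miR-212b-3p, from a cluster that responds to neuronal activity in mammals, complete the silent rows of the list.
The 4 counted neural rows were ssa-miR-129-5p, ssa-miR-212a-5p, ssa-miR-212b-5p and ssa-miR-218-5p. ssa-miR-129-5p had 779, 80, 488, 1396, 251 and 1088 counts in AIC 1 to 6 and 1668, 2999, 340, 1148, 1838 and 1415 in AKC 1 to 6. It was the one row of the list counted in all 12 libraries, and the groups overlapped. ssa-miR-218-5p, known from motor neurons, had 210 counts in AIC 1, 188 in AIC 3 and 1 in AIC 4, with 0 in all AKC libraries.

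The liver and acinar pancreas lists were silent in all of their 5 rows, few rows in a set with 65.2% silent. Both arms of ssa-miR-122, the miRNA that dominates the mammalian and fish liver, and the locus-numbered ssa-miR-122-2-3p had 0 counts in all 12 libraries. Both arms of ssa-miR-216a and ssa-miR-216b-5p, known from acinar cells of the pancreas, were at 0 as well. ssa-miR-122-5p, ssa-miR-216a-5p and ssa-miR-216b-5p are the main arms in mammals, so for both organs the arm that accumulates in the tissue was among the rows at 0.

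Among epithelial families the picture was divided. Both arms of ssa-miR-449a and ssa-miR-449b, which act in the formation of multiciliated cells in mammals and frogs, had no count. ssa-miR-203a-5p, ssa-miR-203b-5p and ssa-miR-205a-3p, all passenger arms of families known from skin and other stratified epithelia, were also silent, whereas 4 rows of these families were counted. ssa-miR-205a-5p had 0, 0, 0, 273, 126 and 0 counts in AIC 1 to 6 and 0, 0, 352, 256, 0 and 299 in AKC 1 to 6. ssa-miR-205b-5p had 235, 259 and 321 counts in AIC 1, AIC 3 and AIC 4 and 0 in every other library, AKC included. None of the 4 counted rows of this list was counted in more than 5 libraries.
ssa-miR-203a-3p had 1 count in AKC 1 and 486 in AKC 3, and ssa-miR-203b-3p had 227 and 486 counts in those libraries, with 0 in every AIC library for both. The 486 counts appear in both rows of AKC 3, and close copies of this kind can be credited with the same reads.

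The early embryo, gonad and sensory lists followed. miR-430, which clears maternal mRNA in zebrafish embryos, had 5 of 6 rows at 0, namely ssa-miR-430a-5p and both arms of ssa-miR-430b and ssa-miR-430c, and the counted row, ssa-miR-430a-3p, had 1 count in each of AIC 1, AIC 2 and AIC 4. ssa-miR-202-3p was silent, while its 5p partner, the arm known from the gonads of mammals and fish, had 1014 counts in AKC 3 and 0 in the other 11 libraries. In the cluster of miR-96, miR-182 and miR-183, known from hair cells and photoreceptors, ssa-miR-182-5p and ssa-miR-183-3p were silent. ssa-miR-183-5p had 1, 136 and 386 counts in AKC 1, AKC 2 and AKC 6 and 0 in every AIC library, and ssa-miR-96-5p had 1 count in AIC 5 and 632 in AKC 1. Hence of the 3 families of this cluster, the 2 that were counted were counted in AKC with at most 1 count in AIC, and ssa-miR-182-5p, a main arm in mammals, was not counted in either. The counts lay in few AKC libraries, those of ssa-miR-96-5p almost all in AKC 1, and the AKC libraries were the deeper ones by median.
ssa-miR-204-3p, the passenger arm of a family known from lens, retina and choroid plexus, was at 0, with 2, 0, 478, 0, 426 and 0 counts for its 5p partner in AIC 1 to 6 and 59 counts in AKC 2 alone among the AKC libraries.

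Mesenchymal and vascular families had few rows. ssa-miR-214-5p and ssa-miR-152-5p were silent, and both are passenger arms in mammals. ssa-miR-152-3p had 83 counts in AIC 3 and 0 in the other 11 libraries, and no 3p row of miR-214 was analysed here. ssa-miR-221-3p, a main arm in mammals that acts in endothelium and in cell proliferation together with miR-222, was at 0 throughout and was the 1 silent row of 4 in the vascular list. The counted rows were ssa-miR-222a-5p, with 382 counts in AIC 3 and 992, 716, 275 and 215 in AKC 1 to 4, ssa-miR-222b-5p with 1 count, and ssa-miR-222b-3p, which was counted in all 12 libraries. The cartilage list had 1 row and no silent one. ssa-miR-140-5p, which acts in cartilage development, had 203 counts in AIC 3 and 325 in AKC 1.

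Of the families found in most mammalian tissues, 16 of 35 rows were silent. All 6 rows of miR-301 (both arms of ssa-miR-301a and ssa-miR-301d, and the 5p arms of ssa-miR-301b and ssa-miR-301c) and ssa-miR-454-5p had no count. In mammals the 3p arms of miR-301 and miR-454 share their seed with the 3p arm of miR-130, and they act in part on the same transcripts. Of the silent rows of miR-301 and miR-454, only ssa-miR-301a-3p and ssa-miR-301d-3p are 3p arms. Both arms of ssa-miR-33a and ssa-miR-33b-5p were silent. miR-33 lies in introns of sterol regulatory element-binding genes and represses cholesterol export in mammals. Both arms of ssa-miR-148b, ssa-miR-29b-3p, ssa-miR-29c-5p, ssa-miR-101a-5p and ssa-miR-101b-3p complete the group. miR-29 is known for repressing collagens and miR-101 for repressing the histone methyltransferase EZH2. Of the 16, the main arms in mammals were ssa-miR-29b-3p, ssa-miR-33a-5p, ssa-miR-33b-5p, ssa-miR-101b-3p, ssa-miR-148b-3p, ssa-miR-301a-3p and ssa-miR-301d-3p.
Their counted relatives were uneven across libraries. ssa-miR-148a-3p had 103, 657 and 162 counts in AIC 2, AIC 3 and AIC 6, and in AKC 1 count in AKC 3. ssa-miR-29c-3p had 112 and 305 counts in AIC 3 and AIC 4 and 162 in AKC 1. ssa-miR-29a-5p had 0, 0, 0, 71, 0 and 279 counts in AIC 1 to 6 and 882, 250, 554, 1, 234 and 244 in AKC 1 to 6. Relatives of silent rows were thus present in both cell sources, and only ssa-miR-29a-5p and ssa-miR-33b-3p among them reached more than 6 libraries.

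The 41 silent miRNAs of families in no tissue list included both arms of ssa-miR-135a and ssa-miR-135c, both arms of ssa-miR-190a with ssa-miR-190b-5p, ssa-miR-193-5p and ssa-miR-489-5p. ssa-miR-135b-5p, the remaining copy of its family, had 217 counts in AIC 5 and 1 count in AKC 5. Families first named in fish or birds were silent in both arms in the case of ssa-miR-460, ssa-miR-723, ssa-miR-724, ssa-miR-725, ssa-miR-729, ssa-miR-736 and ssa-miR-2184, and in the 5p arm for ssa-miR-456, ssa-miR-458, ssa-miR-722, ssa-miR-730a, ssa-miR-734 and ssa-miR-2187. Both arms of ssa-miR-8156, ssa-miR-8160 and ssa-miR-8164 and the 5p arms of ssa-miR-7552a, ssa-miR-7552b, ssa-miR-8157, ssa-miR-8158 and ssa-miR-8163 were at 0, and ssa-miR-1788-3p closes the list. No role is given for these families here.

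Each silent miRNA was then set beside the opposite arm of its precursor. For 62 of the 107 the opposite arm is itself one of the 107, chosen by the same zeros, and these make up 31 precursors with both arms at 0. It was counted for 19, of which 12 were 5p and 7 were 3p members. For the remaining 26 (24 of them 5p) the opposite arm has no row of the same name among those analysed here. Of these 26, ssa-miR-9a-5p has 5 locus-numbered miR-9 rows, all at 0, and ssa-miR-29b-3p has the locus-numbered 5p row with counts in AKC 1. Over the 59 precursors of the set with rows for both arms, 31 had both arms silent, 12 only the 5p arm, 7 only the 3p arm, and 9 neither.

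With the main arm taken from knowledge of mammals, 31 of the 107 silent miRNAs were main arms, 38 were passenger arms and 38 belong to families for which no main arm was assigned. Where the opposite arm was counted, the silent arm was the passenger in 12 of 19, the main arm in 2, and unassigned in 5. Among the passengers, ssa-miR-133a-5p has a locus-numbered copy, ssa-miR-133a-3-5p, that was counted in AIC 4. The 2 silent main arms were ssa-miR-33b-5p and ssa-miR-101b-3p. ssa-miR-33b-3p had 184, 234, 1, 754, 0 and 0 counts in AIC 1 to 6 and 1755, 1000, 0, 0, 0 and 236 in AKC 1 to 6, a total of 4164 in 7 libraries and the highest total among the 19 opposite arms. With 3 counts as its limit, ssa-miR-33b-5p would have made up to 0.0720% of the counts of that pair. That figure covers counting error only and rests on the zeros that chose the row. Since ssa-miR-33b-3p itself fell from 1755 counts to 0 between AKC libraries, it is no firm bound on the use of the arm. ssa-miR-101b-5p had 106 counts in AIC 4 and 253 in AKC 4. For miR-33b and miR-101b the counted arm was therefore the one that is the passenger in mammals, in 7 and in 2 libraries. Of the 9 precursors with both arms counted, a main arm was assigned only for miR-29a, miR-130a and miR-148a, in a list drawn up after the counts had been seen. The mammalian passenger also had the higher count for miR-130a, with 6216 counts on the 5p arm and 155 on the 3p arm, and for miR-29a, with 2515 and 121 counts. For miR-148a the mammalian main arm, 3p, had the higher count, with 923 counts beside 64 on the 5p arm. The widest gaps lay in pairs with no main arm assigned. miR-222b had 7652 counts on the 3p arm and 1 on the 5p arm, and miR-139 had 13892 on 5p and 2 on 3p. The assigned pairs therefore give no rate at which the mammalian passenger had the higher count.

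**Figure D2:**
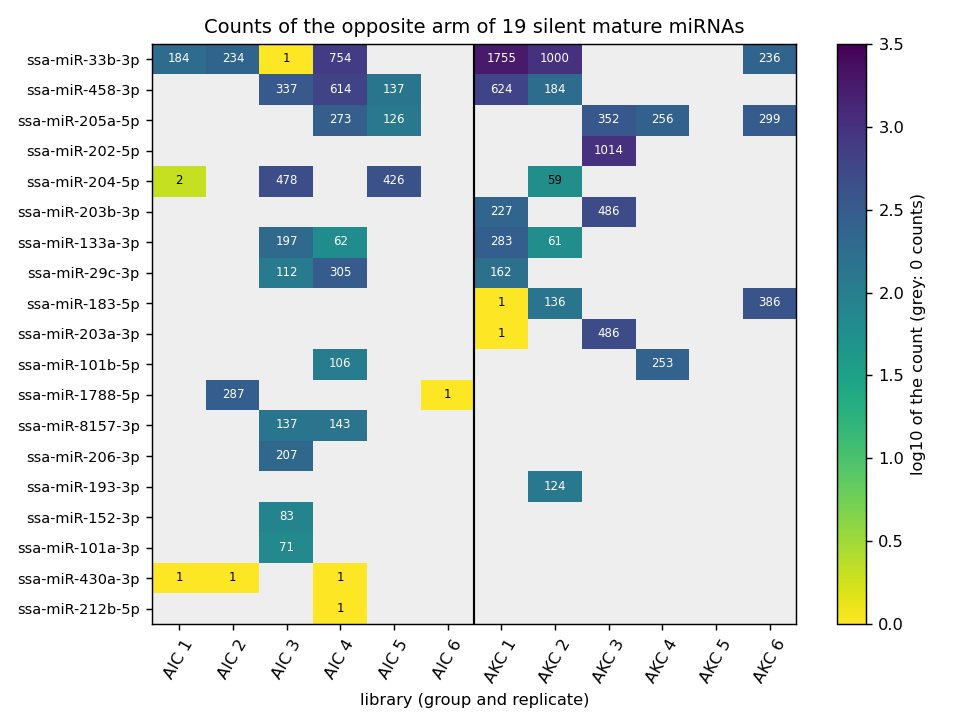
Each row is the opposite arm of 1 of the 19 silent miRNAs whose partner was counted, and each column is a library, with AIC 1 to 6 left of the line and AKC 1 to 6 right of it. Colour gives log10 of the count, the printed number is the count, and grey is 0. ssa-miR-33b-3p fills 7 libraries and every other row fills 5 or fewer.

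The 19 counted opposite arms were themselves sparse. Their totals lay between 1 and 4164 counts, with a median of 487. Of the 19, 6 were counted in 1 library, 12 in 2 to 5 libraries and 1 in more. By cell source, 7 were counted in AIC only, 5 in AKC only and 7 in both. ssa-miR-458-3p, second in total, had 337, 614 and 137 counts in AIC 3, AIC 4 and AIC 5 and 624 and 184 counts in AKC 1 and AKC 2. The number of opposite arms with a count was 3, 3, 9, 9, 3 and 1 in AIC 1 to 6 and 7, 6, 4, 2, 0 and 3 in AKC 1 to 6. AIC 3 and AIC 4 stood highest, 13 of the 19 arms had a count in at least one of these 2 libraries, and AKC 5 had none. Without AIC 3, 16 of the opposite arms remained counted and the number of silent miRNAs was 112.

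Copies of a family with different letters could also be compared. Of the 56 families, 19 have at least 2 lettered copies in the set. Every row was silent in 9 of them: miR-9, miR-153, miR-190, miR-216, miR-219, miR-301, miR-449, miR-499 and miR-7552. In 6, at least 1 copy was silent in all of its rows without a locus number while another was counted: miR-29b (whose locus-numbered row had counts in AKC 1) beside miR-29a and miR-29c, miR-33a beside miR-33b, miR-133b beside miR-133a, miR-135a and miR-135c beside miR-135b, miR-148b beside miR-148a, and miR-430b and miR-430c beside miR-430a. In the other 4 (miR-101, miR-203, miR-205 and miR-212) every copy had a counted arm. Copies of this kind differ by few bases, so reads of one can be counted on another.

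Some silent miRNAs lie in mammals within a few kilobases of, or on the same transcript as, a family that was counted here. These pairs were chosen after their values had been seen, and the order of the salmon genes was not examined. ssa-miR-222b-3p, from the family that shares a transcript with the silent miR-221, had 109, 560, 2, 463, 3 and 208 counts in AIC 1 to 6 and 1615, 1183, 60, 1141, 443 and 1865 in AKC 1 to 6. It was counted in 12 of 12 libraries with a total of 7652, whereas ssa-miR-221-3p had 0 in all. ssa-miR-130a-5p, from the family clustered with miR-301, had 188, 0, 0, 0, 2 and 419 counts in AIC 1 to 6 and 2424, 644, 1208, 793, 257 and 281 in AKC 1 to 6. It was counted in every AKC library and in 3 AIC libraries, beside 6 rows of miR-301 at 0. Another row of its family, ssa-miR-130b-5p, had 223 counts in AIC 1, 1065 in AKC 3 and 1 in AKC 4, with 0 elsewhere. The link to miR-301 is made by family number, and which lettered copies are neighbours was not examined. ssa-miR-212a-5p, from the cluster of the silent ssa-miR-132-5p, had 28, 578 and 1 counts in AIC 3, AIC 4 and AIC 5 and 115, 461 and 475 in AKC 1, AKC 3 and AKC 5. ssa-miR-132-5p is the passenger arm in mammals, and no 3p row of miR-132 was analysed here. ssa-miR-365-5p, from the cluster of the silent ssa-miR-193-5p, had 1 count in each of AIC 3 and AIC 5 and 1620 and 2254 counts in AKC 1 and AKC 2, and ssa-miR-193-3p, the main arm in mammals, had 124 counts in AKC 2. In these 4 clusters a neighbouring family was counted in both AIC and AKC, for miR-365 in AIC only by the single counts in AIC 3 and AIC 5. The cluster of miR-96, miR-182 and miR-183, described above, differed, with 1 count in AIC, for ssa-miR-96-5p. miR-133, set beside the silent miR-1, was counted in both AIC and AKC.

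Whether the counted relatives differed between the cell sources was tested with edgeR's quasi-likelihood test across all 76 miRNAs that passed the filter on low counts, and a miRNA was called where its p, adjusted after Benjamini and Hochberg, was under 0.05 and its change at least 1 in either direction on the log2 scale. Over the table, 20 of 76 (26.3%) were called, 17.1% higher and 9.21% lower in AIC. Of the 28 counted relatives of silent miRNAs, 2 passed the filter and 0 were called, with 0 at an unadjusted p under 0.05 and 0 called by DESeq2. ssa-miR-33b-3p averaged 43.2 ± 50.02 CPM in AIC and 22.4 ± 29.6 CPM in AKC (SD, n = 6 each), a log2 fold change of 0.95 with a 95% interval of -3.40 to 5.29 (edgeR, adjusted p = 0.770). ssa-miR-29a-5p averaged 22.3 ± 49.96 CPM in AIC and 19.8 ± 14.5 CPM in AKC, a log2 fold change of 0.17 with an interval of -3.81 to 4.14 (edgeR, adjusted p = 0.964), and without AIC 6 it was -3.52. The groups overlapped for both, and each interval spans differences of several-fold in either direction.
Of the rows of neighbouring families, ssa-miR-222b-3p averaged 58.6 ± 52.4 CPM in AIC and 77.1 ± 65.2 CPM in AKC, a log2 fold change of -0.39 with an interval of -2.94 to 2.15 (edgeR, adjusted p = 0.859). ssa-miR-130a-5p averaged 47.8 ± 78.6 CPM in AIC and 63.2 ± 45.9 CPM in AKC, a log2 fold change of -0.40 with an interval of -4.03 to 3.23 (edgeR, adjusted p = 0.889), and without AIC 6 it was -3.03. With no filter on low counts, 41 of 180 miRNAs were called, 32 of them higher in AIC. Of the 28 relatives, 19 had an unadjusted p under 0.05 and 5 were called, all higher in AIC, namely ssa-miR-135b-5p, ssa-miR-148a-3p, ssa-miR-204-5p, ssa-miR-205b-5p and ssa-miR-430a-3p. None of the 5 had a count in more than 4 libraries. Scaling by total counts in place of TMM put the median log2 fold change of the 76 at -0.65, against 0.09 with TMM, and turned ssa-miR-33b-3p to -0.26 and ssa-miR-29a-5p to -0.38.

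The number of counted rows was then compared between the cell sources. Of the 164 rows, 116 were silent in all AIC libraries and 123 in all AKC libraries. Beyond the 107 silent in both, 9 were silent in AIC alone, 16 in AKC alone, and 32 had a count in both. The number of the 57 rows that were counted was 14, 19, 29, 27, 18 and 13 in AIC 1 to 6 and 29, 22, 21, 15, 14 and 16 in AKC 1 to 6. The mean was 20.0 ± 6.63 in AIC and 19.5 ± 5.68 in AKC (SD, n = 6 each), a difference of 0.5, smaller than either SD (two-sided exact permutation test over 924 splits, p = 0.926). Since AKC libraries were deeper, the number expected at the smallest library total, 2253241 counts, was computed for each library. It was 18.7 ± 5.68 in AIC and 17.8 ± 5.16 in AKC, a difference of 0.960 (exact permutation test, two-sided, p = 0.736).

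**Figure D3:**
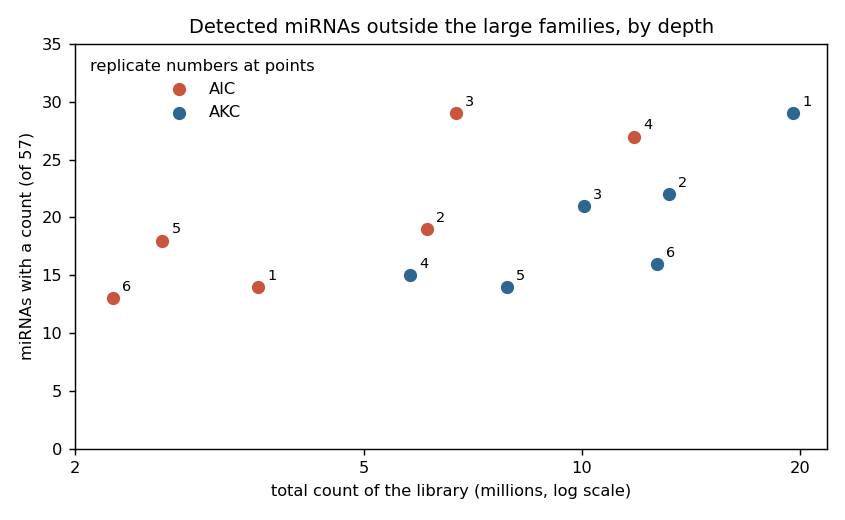
Each point is a library, labelled with its replicate number, with its total count on a log axis (in units of 1000000) and the number of the 57 counted miRNAs that it holds on the vertical axis. AIC (red) ranges from 13 to 29 and AKC (blue) from 14 to 29, and AIC 3 holds as many as AKC 1, the deepest library.

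The counted rows of the same set show how values were spread between 0 and high counts. Of the 57, 17 were counted in 1 library, 10 in 2 libraries and 13 in 6 or more. The 17 rows counted in a single library, 11 of them in an AIC and 6 in an AKC library, held 1 to 1014 counts there, with a median of 83, and 13 of them held more than 50. Over all counted rows and libraries there were 237 values above 0, of which 33 were at most 3, 5 were between 4 and 50, and 199 were over 50. Values between 4 and 50 were thus rare, and a miRNA was mostly at 0 or over 50 in a library. Since a row could hold up to 1014 counts in 1 library and 0 in the others, a zero is no firm bound. The limits of 3 counts given above do not cover such differences between libraries. The rows outside the set had 94 values of at most 3, 46 of more than 3 and up to 50, and 778 over 50.
Just outside the criterion, ssa-miR-212b-5p had 1 count (AIC 4), ssa-miR-222b-5p 1 count (AKC 1), ssa-miR-139-3p 2 counts (AKC 6) and ssa-miR-430a-3p 3 counts over AIC 1, AIC 2 and AIC 4. The silent miRNAs themselves held 0 in all 12 libraries. Allowing a total of up to 3 counts would have given 111 miRNAs in place of 107. As values between 4 and 50 were rare, this change of threshold does not measure how firm the zeros are.

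**Figure D4:**
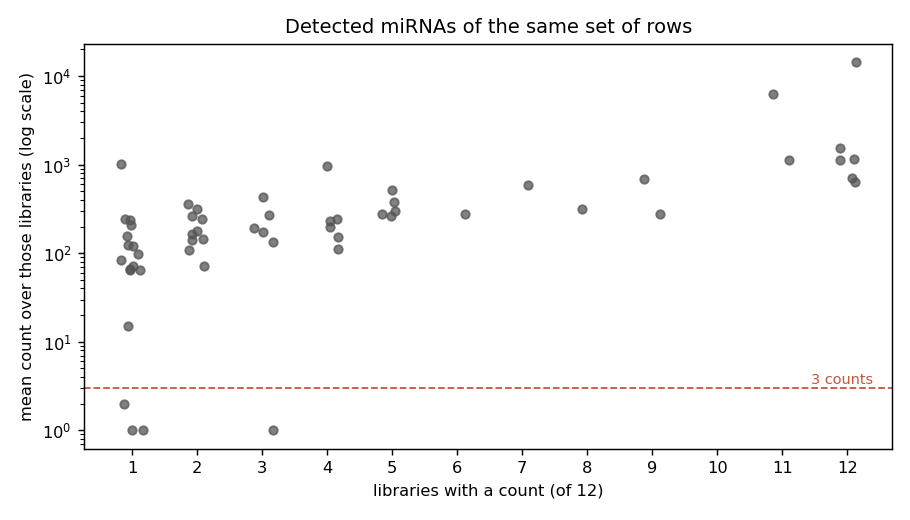
Each point is 1 of the 57 counted miRNAs of the set, with the number of libraries in which it was counted on the horizontal axis and its mean count over those libraries on a log vertical axis; points are shifted sideways to separate them. The dashed line marks 3 counts, and 4 points lie at or below it, while nearly all others lie above 50.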

How the data were processed

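Small RNA libraries of AIC and AKC (6 each) were sequenced by the authors, who used Cutadapt for adapters and the FASTX-Toolkit for low-quality reads, mapped the clean reads to ICSASG_v2 with mapper.pl and counted them on salmon miRNAs of miRBase with quantifier.pl, both of miRDeep2. The submitters' processing notes name bcl2fastq 2.20.0.422, cutadapt 1.12, FastQC 0.11.5 and DESeq2 1.20.0. The values deposited by the authors are estimated counts, 1 for each mature miRNA and library, with no scaling for depth. In 12 rows some values have fractions, none of them (0) in the 164 rows considered, and values were rounded for testing. Columns were matched to libraries by name, and 0 pairs of libraries were identical.

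Silent miRNAs were those at exactly 0 in all 12 columns. The silent miRNAs and the lists were chosen with earlier results of these data known, and the list of main arms and the neighbouring clusters were drawn up after the counts had been seen. Named were the members of the tissue lists, members with a counted opposite arm and those just outside the criterion. Naming by sequence likeness was not applied, since sequences were not used here. edgeR 4.0.16 (limma 3.58.1, R 4.3.3) with filterByExpr (minimum count 10), TMM and the quasi-likelihood test gave the AIC over AKC changes, and CPM are counts per 1000000 of the TMM-scaled total. DESeq2 1.42.0 was an alternative. Other steps ran in Python 3.11.15 with pandas 2.3.3, NumPy 2.4.6 and Matplotlib 3.10.9. The other alternatives were scaling by DESeq2 size factors or total counts with and without the 5 most abundant miRNAs, no filter, other thresholds on counts, a replicate block, thinning, and leaving out each library. The edgeR test was run on simulated counts with known changes as a check of the code.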

Additional observations from a re-analysis of the deposited data

Results flagged for a closer look

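For 39 counted miRNAs named above (the 28 counted relatives of silent miRNAs and 11 others), the CPM of the highest or lowest library of a group was examined for its gap to the next one, as a share of the group's range. In 25 of 57 sets of 6 libraries, a single library held every count, so the ratio was 1 by construction. In AIC these were ssa-miR-101a-3p, ssa-miR-140-5p, ssa-miR-148a-5p, ssa-miR-152-3p, ssa-miR-206-3p and ssa-miR-222a-5p (AIC 3), ssa-miR-29a-3p, ssa-miR-101b-5p, ssa-miR-133a-3-5p and ssa-miR-212b-5p (AIC 4), and ssa-miR-96-5p and ssa-miR-135b-5p (AIC 5). In AKC they were ssa-miR-29b-2-5p, ssa-miR-29c-3p, ssa-miR-96-5p, ssa-miR-140-5p and ssa-miR-222b-5p (AKC 1), ssa-miR-193-3p and ssa-miR-204-5p (AKC 2), ssa-miR-148a-3p and ssa-miR-202-5p (AKC 3), ssa-miR-101b-5p (AKC 4), ssa-miR-135b-5p (AKC 5), and ssa-miR-130a-3p and ssa-miR-139-3p (AKC 6).

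In 9 further sets the gap passed the 95% critical value with counts in 2 or 3 of the 6 libraries and 0 in the rest. In AIC the ratio was 0.821 for ssa-miR-133a-3p, 0.991 for ssa-miR-1788-5p, 0.915 for ssa-miR-212a-5p, 0.717 for ssa-miR-130a-5p and 0.951 for ssa-miR-29a-5p. In AKC it was 0.680 for ssa-miR-133a-3p, 0.662 for ssa-miR-183-5p, 0.999 for ssa-miR-203a-3p and 0.760 for ssa-miR-203b-3p. Chance passes this value in about 1 in 20 sets of continuous values, a rate that does not apply to sets in which most libraries are at 0.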

How the results depend on the processing

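The number of silent miRNAs was 107 as reported, 110 with up to 1 count allowed in any library, 111 with a total of up to 3, 109.56 on average after thinning to the smallest library, and 107 to 112 when 1 library was left out. Counted opposite arms numbered 16 to 19 without 1 library, and 1, against 19, when at least 10 counts in 6 libraries were asked for. Called relatives numbered 0 in every fit except that without a filter, which called 5, and 0 to 0 without 1 library. Of the 28 relatives, only 2 were tested in each filtered fit on all libraries, and 2 to 5 without 1 library. With so few tested, the 0 calls say little about the relatives. The AIC minus AKC difference in counted rows per library was -0.167 at 10 or more counts (exact permutation test, p = 1.0) and -1.30 to 2.40 without 1 library, below 0 without AIC 3, AIC 4, AKC 4, AKC 5 or AKC 6. The log2 fold change of ssa-miR-29a-5p was -0.0184 with DESeq2's size factors, -0.0170 in DESeq2's test, -0.38 with total counts, -0.27 without a filter, and -3.52 to 0.40 without 1 library. For ssa-miR-33b-3p it was -0.26 with total counts and 0.46 to 1.45 without 1 library, for ssa-miR-130a-5p -1.02 and -3.03 to -0.12, and for ssa-miR-222b-3p -1.18 and -1.27 to -0.26. These 4 miRNAs were chosen after their counts had been seen, and the causes were not tested. Libraries with the same number did not deviate together (correlations of -0.118 to 0.0717), and no AIC library (0) correlated best with its own number. With the replicate block, 22 miRNAs were called in place of 20, 0 relatives were called, ssa-miR-29a-5p was at -6.47, ssa-miR-130a-5p at -6.10 and ssa-miR-222b-3p at -1.36, and the difference in counted rows was 0.5 (p = 0.906, exact permutation).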
